A study of Mus musculus with 3 samples.

Results

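The mRNA levels of 35 genes of cholesterol synthesis, uptake and export, and of their control by the transcription factor SREBP, were examined in mouse liver expressing human YAP. The genes were taken by name, and the list was chosen with earlier results of these data known. The counts below therefore describe the list and are no independent check of it. Of these, 20 encode enzymes of the synthesis pathway and 15 encode regulators, transporters and handlers of cholesterol. All 35 had a probe measured on every array, within a total of 13626 named genes measured on all 3 arrays. YAP is a transcriptional coactivator that the Hippo pathway holds back, and 1SA and 2SA are mutants that escape this inhibition. Each of the 3 one-colour Agilent arrays held Cy3-labelled RNA from whole liver of the strain c57BL6/J, labelled 2 days, with 1 array for YAP (WT), 1 for YAP (1SA) and 1 for YAP (2SA). Per the study's methods the mice were male, most of them young adults, and the YAP plasmid reached the liver by hydrodynamic injection into the tail vein. The same vector, with an AFP enhancer and a minimal albumin promoter that act in hepatocytes, was used in all 3 groups, so that every liver had been injected and carried human YAP. A liver without human YAP was not analysed here. Only part of the hepatocytes take up a plasmid given this way, and the arrays measured the whole organ. The labels do not state how many animals gave the RNA of an array, and WT is titled as liver number 2.

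Cells make cholesterol from acetyl-CoA through mevalonate, the isoprenoid units that mevalonate yields, squalene and lanosterol. The genes of this pathway are switched on by SREBP-2 and, with more weight on fatty acids, by SREBP-1c, which are made as precursors in the membrane of the endoplasmic reticulum. When membrane cholesterol is low, Scap carries the precursor to the Golgi, where proteases release the active factor, and when cholesterol is high, Insig proteins hold Scap back. Export runs partly under another sensor, the liver X receptor (LXR), which responds to oxidised sterols. In the liver, the cholesterol made or taken up leaves in lipoproteins, in bile or as bile acids.

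Promoters are shown first, because the active SREBP binds sterol elements next to sites of the factors NF-Y and Sp1, and because these genes are often described as moving together. RefSeq promoter windows of build GRCm38.p6, from 250 bases before to 50 after a gene's start, were matched by symbol. Of the 35 genes, 28 had a window, with 38 windows in all. Scarb1, Soat2, Fdft1, Sqle, Npc1, Fdps and Stard4 had none. The sequences below are the 250 bases before the start, 5′ to 3′ on the gene's strand. Capitals mark the sterol element core TCACNCCAC and the NF-Y box CCAAT, each on either strand, so that ATTGG is CCAAT read on the other strand. The first 4 are the enzymes with a window whose smaller difference from YAP (WT) was largest. Insig1 is a regulator that is itself an SREBP target, and Acat2 is an enzyme whose levels differed little, chosen after its values were seen.
Mvd, chr8:122443423-122443672, minus strand: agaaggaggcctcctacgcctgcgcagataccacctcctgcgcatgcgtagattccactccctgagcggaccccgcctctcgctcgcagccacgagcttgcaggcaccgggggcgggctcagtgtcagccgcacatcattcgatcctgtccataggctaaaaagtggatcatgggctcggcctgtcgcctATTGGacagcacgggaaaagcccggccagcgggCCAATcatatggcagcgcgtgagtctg
Hmgcs1, chr13:119690101-119690350, plus strand: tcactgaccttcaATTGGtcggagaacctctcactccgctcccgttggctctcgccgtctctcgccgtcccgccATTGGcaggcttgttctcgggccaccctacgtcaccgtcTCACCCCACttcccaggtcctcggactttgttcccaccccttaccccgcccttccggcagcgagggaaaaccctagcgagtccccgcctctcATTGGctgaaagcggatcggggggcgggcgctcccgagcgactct
Msmo1, chr8:64733579-64733828, minus strand: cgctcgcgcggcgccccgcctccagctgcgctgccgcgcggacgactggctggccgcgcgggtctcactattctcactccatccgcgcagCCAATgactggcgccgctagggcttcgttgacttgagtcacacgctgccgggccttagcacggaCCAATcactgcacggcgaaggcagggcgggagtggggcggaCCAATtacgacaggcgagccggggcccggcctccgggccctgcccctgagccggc
Cyp51, chr5:4104698-4104947, minus strand: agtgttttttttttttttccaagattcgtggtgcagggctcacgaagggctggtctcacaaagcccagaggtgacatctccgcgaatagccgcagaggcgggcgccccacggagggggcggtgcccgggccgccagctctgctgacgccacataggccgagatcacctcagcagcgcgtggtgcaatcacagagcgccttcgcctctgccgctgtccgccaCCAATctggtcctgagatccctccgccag
Insig1, chr5:28071162-28071411, plus strand: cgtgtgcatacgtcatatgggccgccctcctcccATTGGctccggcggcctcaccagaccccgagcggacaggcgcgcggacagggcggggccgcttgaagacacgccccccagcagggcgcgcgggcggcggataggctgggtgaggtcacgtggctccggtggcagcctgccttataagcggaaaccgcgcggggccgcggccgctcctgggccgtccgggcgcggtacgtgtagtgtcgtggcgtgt
Acat2, chr17:12960726-12960975, minus strand: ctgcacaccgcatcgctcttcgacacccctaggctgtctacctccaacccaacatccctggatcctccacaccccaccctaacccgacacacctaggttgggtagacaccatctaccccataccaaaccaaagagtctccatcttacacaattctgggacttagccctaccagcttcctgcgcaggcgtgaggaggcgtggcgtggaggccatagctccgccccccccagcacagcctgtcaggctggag

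Among these 6 sequences the sterol element core as spelt was found in Hmgcs1, with its first base 137 bases before the start (-137). The same promoter held the NF-Y box at -237, -176 and -45. Mvd held it at -60 and -27, Msmo1 at -160, -96 and -55, Cyp51 at -29 and Insig1 at -216. The Acat2 sequence held neither motif. Over the full windows, the NF-Y box was present in 16 of 20 windows of synthesis enzymes (80%) and in 9 of 18 windows of the other members (50%), against 37.4% of all 32851 windows. The GC box GGGCGG, a site of Sp1, was present in 16 enzyme windows (80%) and in 11 windows of the other members (61.1%), against 35.7% of all. The sterol element core was found in 1 enzyme window (5%) and in 0 of the others, against 1.24% of all windows. The E-box CACGTG, which SREBP-1 can also bind, was in 3 enzyme windows (15%) and 4 other windows (22.2%), against 7.15%. The box CATTCC, bound by TEAD, the DNA-binding partner of YAP, was in 0 enzyme windows and in 3 other windows (16.7%), those of Abcg5, Abcg8 and Npc2, against 14.7%. The windows of Abcg5 and Abcg8 overlap, and their CATTCC match is the same 6 bases, as is 1 match of the NF-Y box in each. The DR4 element, the paired site of LXR, was searched only as the exact letters AGGTCA repeated after 4 bases. It was in 0 member windows, against 0.0152% of all. With matches this rare among all windows, its absence here says nothing of LXR sites. All motifs were searched on both strands, and 0 matches of different motifs overlapped in the members' windows. These are matches of letters and were not measured as binding. A pair of windows of 1 gene can share bases.

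A few facts of the arrays bear on the values. The 75th percentile of spot intensity lay between 275.7 and 319.5, each array was scaled to its own, and between 28972 and 30784 probes were measured, that is, well above background. No spot was saturated. The 10 hepatocyte markers were measured on every array. Ccn2, also known as Ctgf, is the gene that the study read as a sign of YAP activity. By real-time PCR the study reported it raised in livers with each active mutant, but not in those with YAP (WT). On the arrays its normalised log2 level was lower in YAP (1SA) than in YAP (WT) (-0.44) and higher in YAP (2SA) (2.15). On the 1SA array this readout thus matched neither the label of an active mutant nor that PCR result. With 1 array per group there was no replicate check, no test was run, and a difference between groups cannot be told apart from a difference between livers. Probes that are spotted 10 times on each array gave the only repeat. Their SD implied an SD of 0.10 for a log2 difference between arrays, and a limit of 2 SDs, 0.21, is used below. This limit says nothing of how livers of 1 group would differ.

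The first comparison asked how the sterol genes differed between the arrays labelled YAP (1SA) and YAP (WT). The enzymes of cholesterol synthesis were higher on the 1SA array, and the median of each of their steps was above that of all genes. Of the 20 enzymes, 19 were higher, against 49.7% of all genes, and 18 by more than the limit from repeated spots. Their median log2 difference was 0.84, against -0.0017 over all named genes. At least 2-fold higher were 10 of the 35 members, 8 enzymes and the SREBP targets Insig1 and Stard4, against 0.727% of all genes. At least 2-fold lower were 0 members, against 1.14% of all genes. Past the limit from repeated spots, 20 members were higher, against 15.9% of all genes, and 4 were lower, against 18.9%. The 15 other members had a median of -0.09, and 2 of them, Insig1 and Stard4, were higher past the limit. The higher levels thus lay mostly with the enzymes.

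The second comparison asked the same of YAP (2SA) and YAP (WT). Again 19 of the 20 enzymes were higher, against 43.6% of all genes, and 17 of them were past the limit from repeated spots. Their median difference was 0.59, against -0.03 over all named genes. The 1 enzyme that was not higher, Ggps1, changed sign with the scaling between arrays. At least 2-fold higher were 8 members, 7 enzymes and Insig1, against 1.12% of all genes. At least 2-fold lower were 0 members, against 0.543%. Past the limit, 19 members were higher and 4 lower, against 15.4% and 19.1% of all genes. The median of the other members was -0.01. Both comparisons rest on the same WT array, so a WT array that lay low for these genes would enter both.

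Set directly against each other, no member differed 2-fold between the mutants, and most enzymes had lower levels in YAP (2SA). In this comparison 0 members were at least 2-fold higher, against 2.47% of all genes, and 0 at least 2-fold lower, against 1.12%. Past the limit from repeated spots, 19 members were lower in YAP (2SA), 16 of them enzymes, against 23.8% of all genes. Another 5 were higher, against 21.1%. The median was -0.39 for the enzymes, 0.001 for the other members and -0.03 for all named genes. The 10 hepatocyte markers had a median of -0.36 in this comparison, with 6 lower and 1 higher past the limit. A lower level in YAP (2SA) than in YAP (1SA) was thus not particular to the enzymes. For 16 of the 20 enzymes (80%) the normalised levels ran from YAP (WT) through YAP (2SA) to YAP (1SA), an order that 12.3% of all named genes had. For Fdft1 the mutants differed by -0.04, a sign that depended on the scaling. Of the 15 other members, 1 had it, Stard4.

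**Figure D1:**
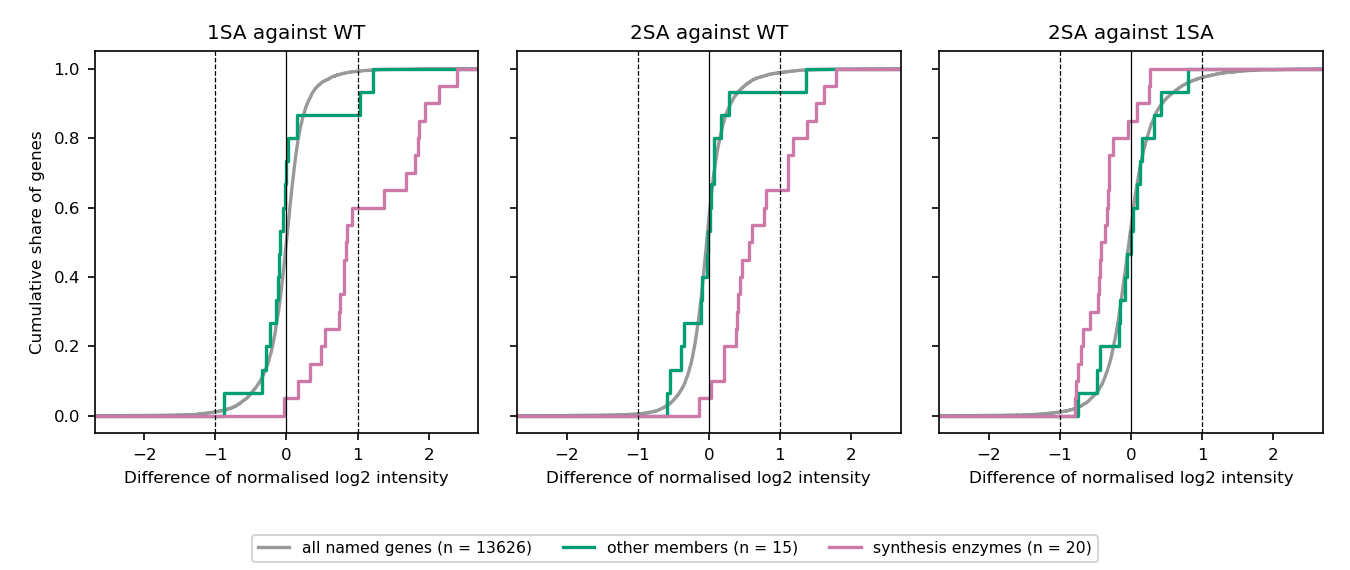
Cumulative share of genes (y axis) by the difference of normalised log2 intensity (x axis) for all 13626 named genes, the 20 synthesis enzymes and the 15 other members, in each of the 3 comparisons; dashed lines mark 2-fold. Against WT, the curve of the enzymes lies to the right of that of all genes (medians 0.84 and 0.59). For 2SA against 1SA it lies to the left (-0.39). The other members follow all genes, with Insig1 and Stard4 at the right end against WT. For 2SA against 1SA, Stard4 is the lowest of them (-0.75) and Srebf2 the highest (0.80, brighter probe).

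The genes of the mevalonate step came first. Hmgcs1 (NM_145942), the synthase that makes HMG-CoA, had a spot intensity of 4975 (WT), 16474 (1SA) and 14249 (2SA). WT was the low array, and after scaling the 1SA level was 3.49-fold and the 2SA level 2.61-fold that of WT (log2 differences 1.80 and 1.38). Mvd (NM_138656), which decarboxylates the mevalonate product to isopentenyl diphosphate, had intensities of 158 (WT), 579 (1SA) and 495 (2SA). Its levels were 3.86-fold and 2.85-fold that of WT, with both mutants again well above WT. Between these enzymes of the pathway lie the kinases Mvk and Pmvk, which add phosphates to mevalonate in turn and differed less. Their differences in 1SA were 0.81 and 0.75, and in 2SA 0.47 and 0.44. The second probes of both kinases gave 0.74 and 0.69 in 1SA, and 0.56 and 0.44 in 2SA. Acat2, a thiolase that supplies acetoacetyl-CoA, was the exception at this step. Its difference was -0.04 in 1SA, and in 2SA 0.21, just under the limit before rounding. The step's median was 0.81 in 1SA and 0.47 in 2SA.

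The isoprenoid step held the largest difference from WT in 1SA among all members. Fdps (NM_134469), which builds farnesyl diphosphate, the last intermediate shared by sterols and other isoprenoids, had intensities of 4207 (WT), 21095 (1SA) and 14216 (2SA). The levels were 5.29-fold and 3.08-fold that of WT (log2 2.40 and 1.62), and the rank from the highest among the 13626 genes was 5 in 1SA and 32 in 2SA. Idi1 (NM_145360), the isomerase before it, had intensities of 2621, 6456 and 4379 on WT, 1SA and 2SA. It was 2.60-fold higher in 1SA and 1.52-fold higher in 2SA, so of the 8 enzymes past 2-fold in 1SA it was the 1 that did not pass it in 2SA. Ggps1, which leads away from sterols to geranylgeranyl diphosphate, stayed within the limit from repeated spots in both (0.17 and -0.14). The sign of its 2SA value depended on the scaling between arrays. Its second probe gave 0.01 and -0.10.

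From squalene to lanosterol, all 3 enzymes were higher in both mutants. Sqle (NM_009270), squalene epoxidase, which is a slow step of the pathway, had intensities of 664 (WT), 2801 (1SA) and 2516 (2SA). The levels were 4.45-fold and 3.45-fold that of WT (log2 2.15 and 1.79), and in 2SA this was the largest difference among the members, at rank 23 of all genes. Lss, the cyclase that closes the sterol rings, differed by 0.83 in 1SA and 0.57 in 2SA. Fdft1, squalene synthase and the first enzyme given over to sterols, differed by 0.82 and 0.77 by its brighter probe. Its second probe was dim, with intensities of 15.4 on WT and 17.6 on 1SA (a difference of 0.27), and it was not well above background on 2SA (8.70). By that probe the level was at least 1.94-fold higher in WT than in 2SA and at least 2.34-fold higher in 1SA than in 2SA, which is the opposite direction to the brighter probe for 2SA against WT.

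The 9 enzymes from lanosterol to cholesterol were all higher in both mutants, by 0.33 to 1.86 in 1SA and by 0.04 to 1.18 in 2SA. Cyp51 (NM_020010), the demethylase that acts on lanosterol, had intensities of 99.7 (WT), 341 (1SA) and 237 (2SA). Its levels were 3.61-fold and 2.16-fold that of WT. Msmo1 (NM_025436), which with Nsdhl and Hsd17b7 removes the methyl groups next to the hydroxyl group, had intensities of 4686 (WT), 16151 (1SA) and 11676 (2SA). The levels were 3.64-fold and 2.27-fold that of WT, in the same order of arrays. Nsdhl (NM_010941) had intensities of 287, 875 and 682, and was 3.21-fold higher in 1SA and 2.16-fold higher in 2SA. Its second probe gave 3.47-fold and 2.31-fold. Hsd17b7, the partner of Msmo1 and Nsdhl in this reaction, differed from them in order, with 0.54 in 1SA and 0.81 in 2SA, and its second probe gave 0.33 and 0.57. The reductases Tm7sf2 and Lbr act on the same bond. Tm7sf2 differed by 0.92 in 1SA and 0.22 in 2SA, and its second probe by 0.93 and 0.28. Lbr, which is also a protein of the nuclear membrane, differed by 0.33 and 0.41, and its second probe was not well above background on WT. The late enzymes Ebp, Sc5d and Dhcr7 were higher by 0.49, 0.73 and 0.85 in 1SA. In 2SA they differed by 0.04, 0.40 and 0.39, of which the value of Ebp, the isomerase, lay within the limit.

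**Figure D2:**
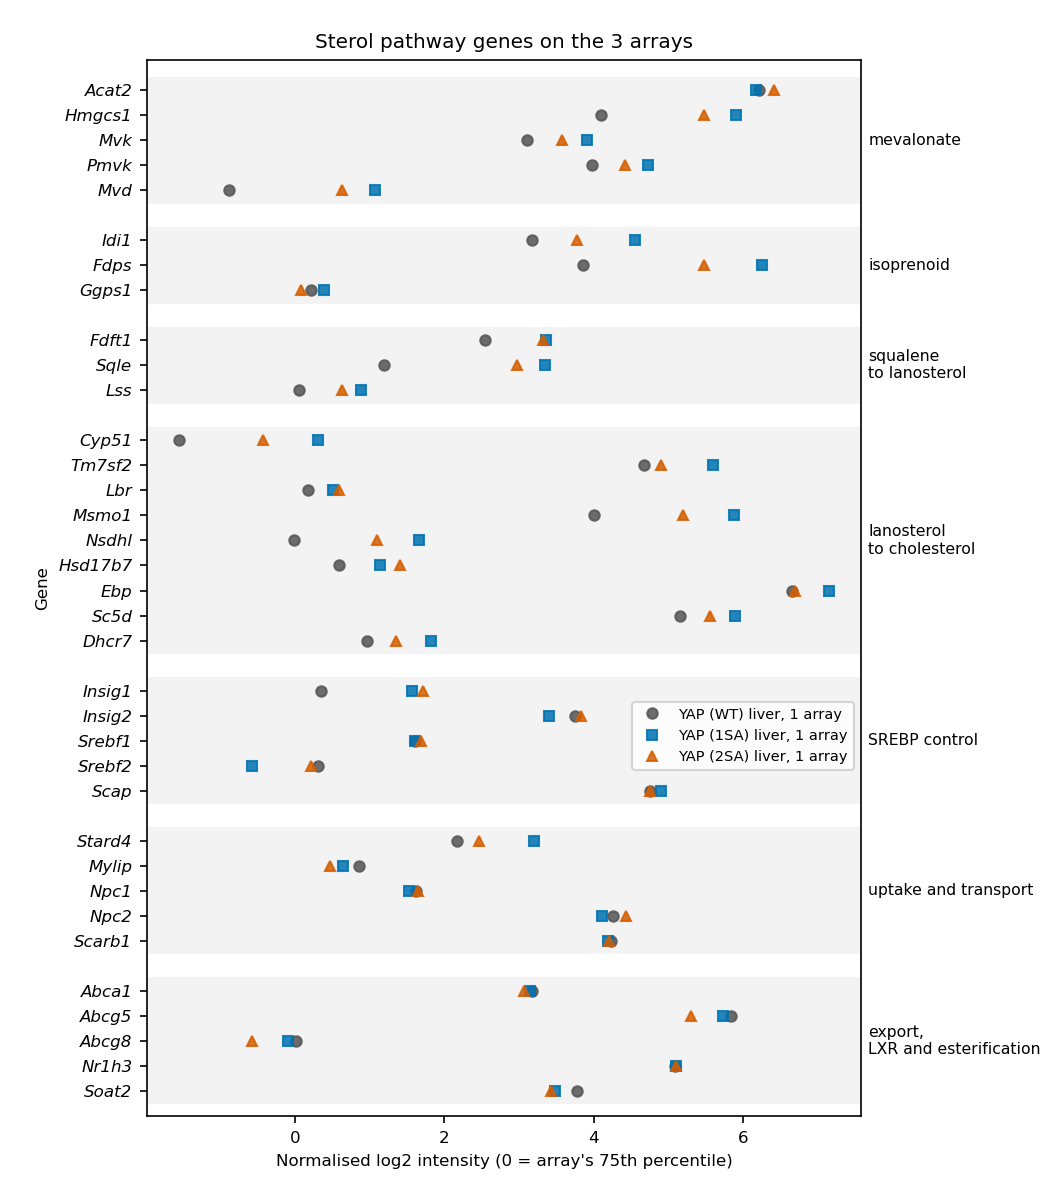
Normalised log2 intensity (x axis, 0 is the array's 75th percentile) of each of the 35 genes (y axis, by step) on the WT, 1SA and 2SA arrays, 1 point per array and gene by the brightest probe measured on all 3. In 16 of the 20 enzymes the WT point lies lowest and the 1SA point highest, Fdft1 among them by a margin that depended on the scaling; levels are not comparable between genes, which have different probes.

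The genes that control SREBP did not move as 1 group. Insig1 (NM_153526), which holds Scap back and is itself a target of SREBP, had intensities of 371 (WT), 816 (1SA) and 1049 (2SA). It was 2.32-fold higher in 1SA and 2.57-fold higher in 2SA, and the mutants differed by 0.15, within the limit. Its relative Insig2 (NM_133748), which does the same work but is not a target of SREBP in the same way, had intensities of 3929, 2928 and 4550. It was low on the 1SA array alone, with log2 differences from WT of -0.35 in 1SA and 0.08 in 2SA. A probe for another of its transcripts gave -0.33 and -0.04. So Insig1 and Insig2 lay on opposite sides of WT on the 1SA array, each by more than the limit from repeated spots.

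The factors themselves differed little or gave no single answer. Srebf1 (NM_011480), which encodes SREBP-1, had intensities of 888 (WT), 839 (1SA) and 1028 (2SA), and its differences from WT were -0.01 and 0.07. Scap (NM_001001144), the escort of the precursor, had intensities of 7863, 8276 and 8591, with differences of 0.15 and -0.01. Both genes lay within the limit on all arrays, and the sign of Srebf1 in 1SA and of Scap in 2SA depended on the scaling between arrays. Srebf2 (NM_033218), which encodes SREBP-2, the main activator of the synthesis enzymes, had 2 measured probes that disagreed. The brighter had intensities of 360 (WT), 185 (1SA) and 371 (2SA), which is low on the 1SA array alone (-0.88, against -0.09 in 2SA). The dimmer had intensities of 101, 147 and 172, which is low on the WT array alone (0.61 in 1SA and 0.63 in 2SA). The brighter probe would place Srebf2 at rank 218 from the lowest of all genes in 1SA, while the dimmer has the direction of the enzymes. The counts and medians over members use the brighter probe, which is 1 of the 4 members lower past the limit in 1SA and 1 of the 5 higher in 2SA against 1SA.

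Of the 35 genes, 14 had more than 1 probe, and in 12 both were measured on all arrays. Only 3 pairs differed by more than the limit from repeated spots in any comparison, those of Srebf2, Hsd17b7 and Mylip. Among these 12, the largest gap apart from Srebf2 was 0.33, in Mylip. The pairs of Fdft1 and Lbr, each with a probe not well above background on 1 array, were not in this count, and the gap of the Fdft1 probes was larger than 0.33 (-0.54 in 1SA against WT, where both were measured). The remaining 21 members had 1 probe, so their values have no such check.

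**Figure D3:**
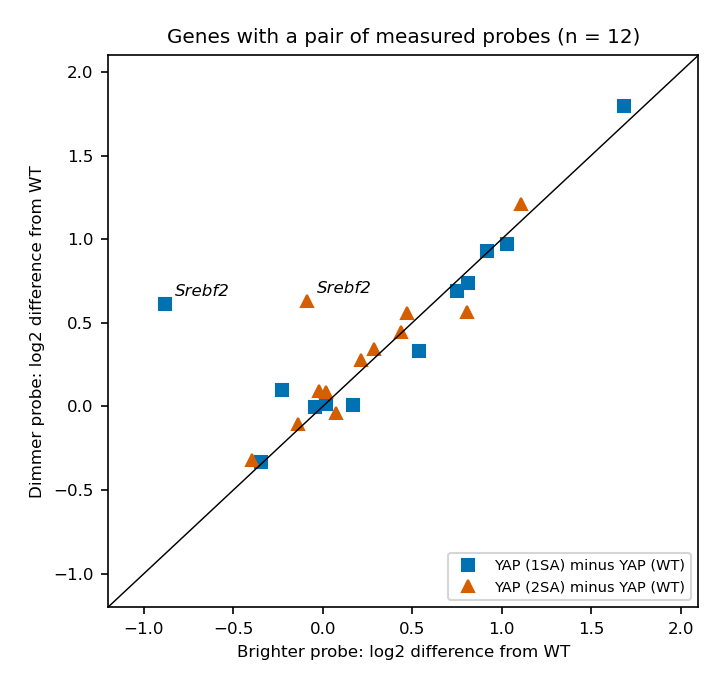
Log2 difference from WT by the brighter probe (x axis) and by the dimmer probe (y axis) for the 12 genes with a pair of probes measured on all arrays, squares for 1SA and triangles for 2SA; the line marks equal values. These 12 pairs, which leave out Fdft1 and Lbr, follow the line within 0.33 apart from Srebf2, at -0.88 against 0.61 in 1SA and -0.09 against 0.63 in 2SA.

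Of the 5 genes of uptake and transport inside the cell, 1 stood apart. Stard4 (NM_133774), a soluble carrier of cholesterol and a target of SREBP, had intensities of 1312 (WT), 2542 (1SA) and 1756 (2SA). It was 2.04-fold higher in 1SA and 1.22-fold higher in 2SA, so it was just past 2-fold in 1SA, with Tm7sf2 (1.89-fold) next below that line. The second probe of Stard4 gave 1.96-fold and 1.27-fold. Mylip, a ubiquitin ligase induced by LXR that marks lipoprotein receptors for degradation, differed by -0.22 in 1SA and -0.40 in 2SA, and its second probe by 0.10 and -0.32, so that its direction in 1SA rests on the probe. Npc1 and Npc2, which pass cholesterol out of the lysosome, and Scarb1, the receptor of high density lipoprotein, lay within the limit in both mutants, between -0.15 and 0.17. The sign of Scarb1 in 2SA depended on the scaling. The median of the step was -0.09 in 1SA and 0.03 in 2SA.

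Export, LXR and esterification differed little from WT or lay lower in the mutants. Abcg5 and Abcg8, the partners that form the transporter that secretes cholesterol into bile, differed by -0.10 and -0.11 in 1SA, within the limit. In 2SA they were lower by more than the limit, at -0.54 and -0.59, and against 1SA at -0.44 and -0.48. These genes lie head to head in the genome, and both had nearly the same value in each comparison. Soat2, which esterifies cholesterol in hepatocytes, was lower in both mutants (-0.29 and -0.35). Abca1, which loads cholesterol onto apolipoprotein A-I, differed by -0.03 and -0.11. Nr1h3, which encodes LXR alpha, differed by 0.02 in both. The signs of Abca1 in 1SA and of Nr1h3 in both depended on the scaling between arrays. The step's median was -0.10 in 1SA and -0.35 in 2SA.

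**Figure D4:**
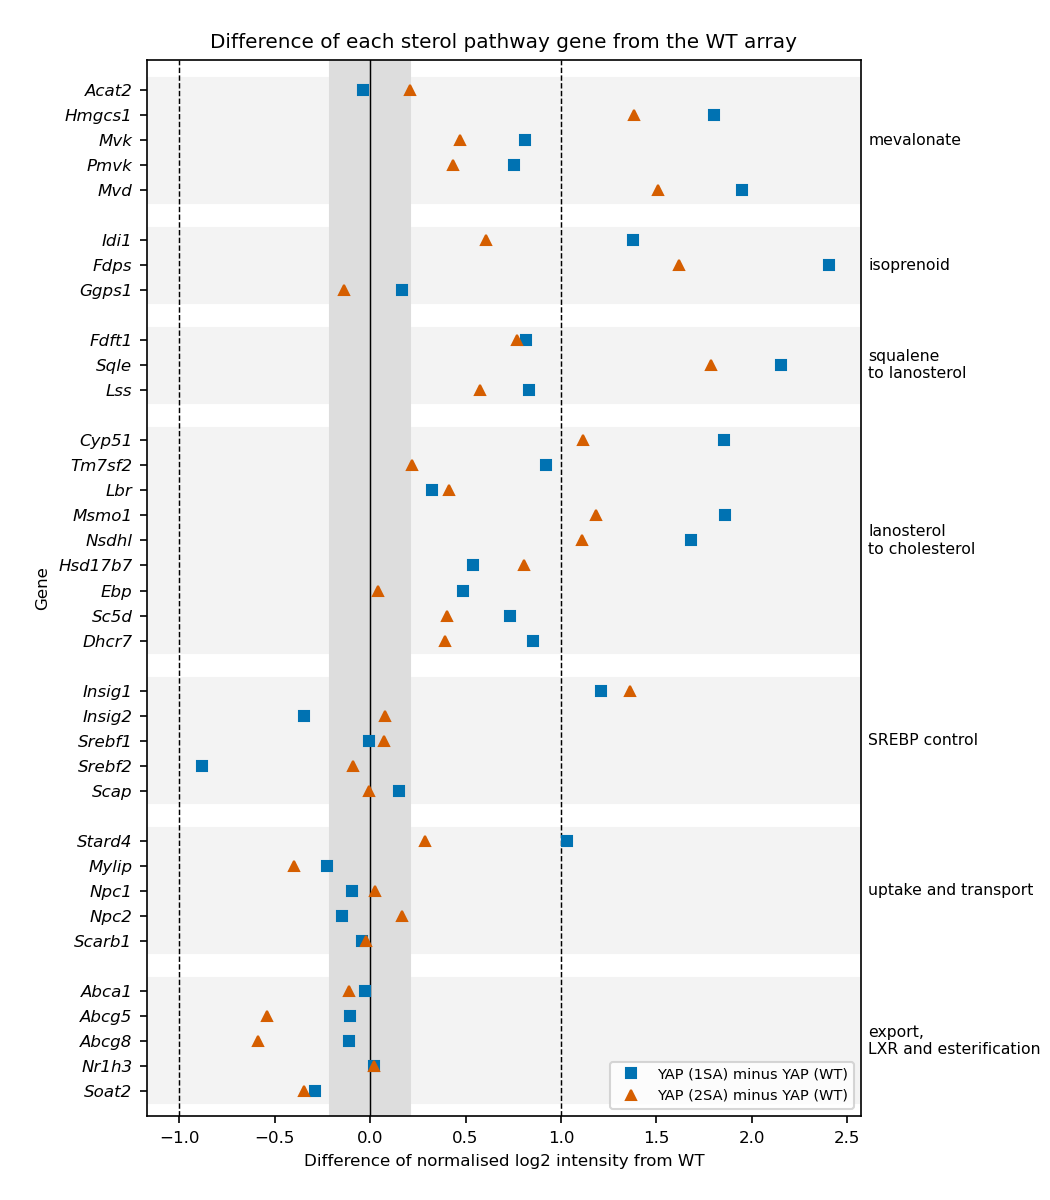
Difference of normalised log2 intensity from the WT array (x axis) for each of the 35 genes (y axis, by step), squares for 1SA and triangles for 2SA; the grey band is the limit from repeated spots (0.21) and the dashed lines mark 2-fold. The enzymes in the upper blocks lie right of the band apart from Acat2 and Ggps1, and Ebp in 2SA, while Insig1 and Stard4 are the members of the lower blocks to its right in both mutants.

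Neighbouring pathways were described by lists of genes. Of 36 other sterol pathway genes measured of 38 listed, the median was 0.03 for 1SA and -0.03 for 2SA. In 1SA, 6 were higher and 9 lower by more than the limit from repeated spots, and in 2SA 5 and 7. The shares of all genes were 15.9% higher and 18.9% lower in 1SA, and 15.4% and 19.1% in 2SA, so the shares higher in this list of 36 were near those of all genes. This list holds the SREBP proteases, receptor adaptors, sterol carriers and bile acid enzymes, and 2 of its genes passed 2-fold in any comparison. Cyp7b1, an oxysterol hydroxylase of bile acid synthesis, was higher in 1SA (1.20) and not in 2SA (0.16). Cyp7a1, the rate-limiting enzyme of bile acid synthesis, differed by -0.21 in 1SA and was lower in 2SA (-1.82).

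The genes of fatty acid synthesis, which SREBP-1c also drives, were also higher in the mutants. Of 14 listed, 13 were measured, and 13 were higher in 1SA by more than the limit, with a median of 0.79, against 15.9% of all genes. In 2SA 11 were higher, 9 of them past the limit, with a median of 0.34, against 15.4% of all genes past it. Between the mutants, 12 of the 13 were lower in 2SA than in 1SA and 1 was higher, where 45.6% of all genes were higher. Past the limit, 11 were lower and 0 higher, against 23.8% and 21.1% of all genes. At least 2-fold higher in 1SA than in WT were 5 of the 13, against 0.727% of all genes, and 0 in 2SA, against 1.12%. The 5 were the carboxylase Acacb (1.52), the desaturase Scd1 (1.52), Acss2, which makes acetyl-CoA from acetate (1.38), the synthase Fasn (1.30) and Thrsp, a gene induced by feeding (1.21). Their values in 2SA were 0.64, 0.24, 0.50, 0.91 and 0.77. Scd1 was the gene of this list that passed 2-fold between the mutants (-1.28 in 2SA against 1SA).

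**Figure D5:**
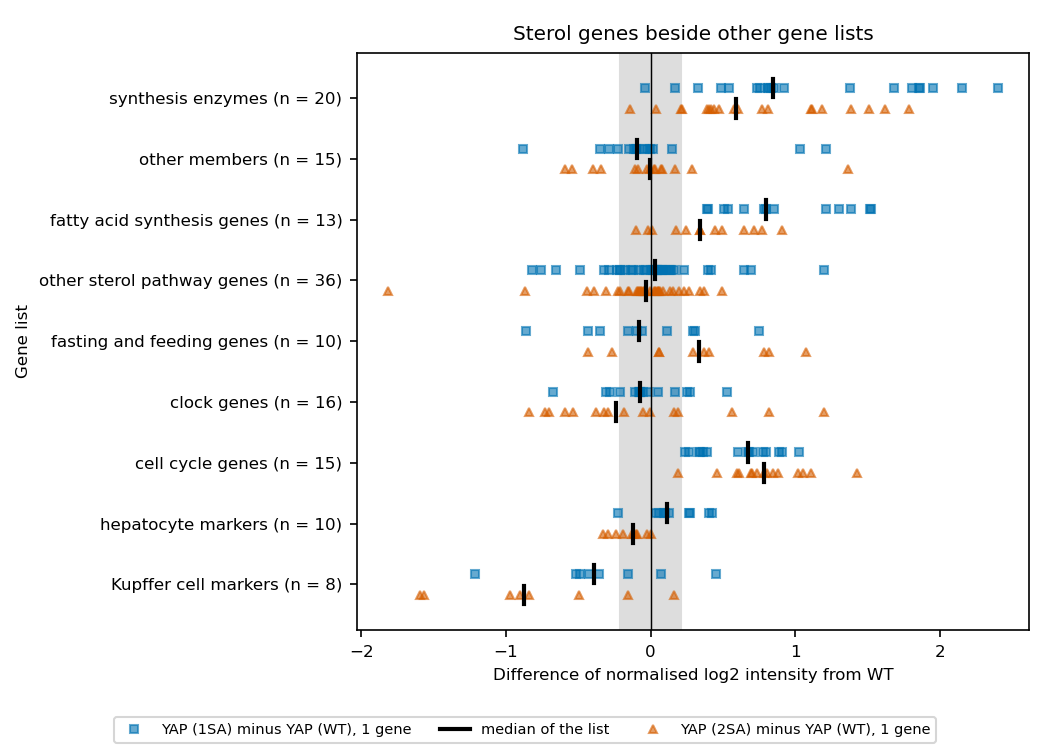
Difference of normalised log2 intensity from WT (x axis) of each gene in 9 lists (y axis), squares for 1SA and triangles for 2SA, with black bars at the list medians and the grey band at the limit from repeated spots. Medians above the band in both mutants are those of the synthesis enzymes (0.84 and 0.59), fatty acid synthesis (0.79 and 0.34) and cell cycle genes (0.67 and 0.78); the Kupffer cell markers lie lower (-0.39 and -0.87).

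Other features of the livers also differed between the arrays, and their part in the values above was not tested. Feeding state bears on lipid synthesis, and the 10 fasting and feeding genes measured of 12 listed had a median of -0.08 (1SA) and 0.33 (2SA). Single genes lay far from these medians on both sides, and those named here were chosen after their values were seen. Angptl4, a lipase inhibitor induced by fasting, differed by -0.86 in 1SA and 0.78 in 2SA, and Igfbp1 by 0.75 and 1.08. The 16 clock genes measured of 18 had medians of -0.07 and -0.24. Arntl, the core activator of the clock, differed by -0.28 in 1SA and 1.20 in 2SA, and Nr1d1, its repressor, by -0.67 and 0.82. Ciart differed by 0.17 and -0.84. Between the mutants, Angptl4 (1.64), Arntl (1.48), Nr1d1 (1.49) and Ciart (-1.01) were past 2-fold. The 15 measured cell cycle genes of 16 were all higher in both mutants, with medians of 0.67 and 0.78. Of all named genes, 49.7% were higher in 1SA and 43.6% in 2SA. Hepatocytes are the main site of this pathway in the liver, and their 10 markers had a median of 0.11 (1SA) and -0.12 (2SA), and their summed level, in units of the array's 75th percentile, came to 4541 (WT), 5045 (1SA) and 3997 (2SA). In whole liver, fewer cells of a type and less RNA per cell cannot be told apart.

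Markers of other cells were present on all 3 arrays. The 8 Kupffer cell markers, all measured, had summed levels of 220.9 (WT), 159 (1SA) and 121 (2SA), and 6 of 8 were lower in 1SA and 7 of 8 in 2SA. Past the limit, 5 were lower and 1 higher in 1SA, against 18.9% and 15.9% of all genes. In 2SA, 6 were lower and 0 higher, against 19.1% and 15.4%. The differences of the 8 Kupffer cell markers ran from -1.21 to 0.45 in 1SA and from -1.59 to 0.16 in 2SA. The 6 sinusoidal endothelial markers summed to 73.2, 78.3 and 60.1. Their differences ran from -0.20 to 0.13 in 1SA and from -0.59 to 0.37 in 2SA. In 2SA 2 were higher and 1 lower past the limit, against 15.4% and 19.1% of all genes, so the lower sum was not shared by all 6. The stellate cell markers, 5 of 6 measured, summed to 28.6, 27.5 and 18.8. The 5 bile duct markers were near the bottom of the measured range, with sums of 1.04, 0.706 and 1.06. The blood markers, 3 of 5 measured, were higher on 1SA, with sums of 56.6, 94.6 and 71.0, and the leukocyte markers, 5 of 6 measured, had 6.50, 6.48 and 6.82. The differences of the leukocyte markers ran from -0.61 to 0.45 in 1SA and from -0.16 to 0.53 in 2SA. The blood sum had the order of the enzymes, from WT through 2SA to 1SA, and this was not tested as a part of the result. No defining marker list was absent from an array.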

How the data were processed

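Mouse liver RNA of 3 groups, 1 array per group, was hybridised to SurePrint G3 Mouse arrays. The deposited values are linear spot intensities, from which the authors' scanner software (Agilent Feature Extraction 10.10.1.1) had subtracted background and spatial trends. The header gives mm9 as the build of the probes. All arrays lay on 1 slide. The authors' matrix held the same intensity times 1 constant per array (3.02 for WT, 3.08 for 1SA and 2.81 for 2SA), of unstated source. Its column medians were 61.8, 58.4 and 62.3.

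Of 59305 non-control spots, 181, 148 and 182 outlier spots on WT, 1SA and 2SA were left out. A probe's value is the mean log2 intensity of its spots, relative to the array's 75th percentile. A probe was measured where at least 50% of its spots were well above background. RefSeq accessions named 26762 of 55681 probes (20284 symbols), with assembly GRCm38.p6 used for names and promoters only. The brightest probe measured on all arrays stood for a gene. For a probe measured on 1 side only, the fold is a bound against the higher of the dim array's lowest measured signal and the probe's own value. The limit came from 399 probes with 10 spots (median SD 0.07 on each array). The number of arrays limits the precision.

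Genes were named by step, with array values for members past 2-fold in any comparison and for Srebf1, Srebf2, Scap, Insig1 and Insig2. Genes of the other sterol and fatty acid lists were named where past 2-fold, and genes of the remaining lists after their values were seen. Members and lists were chosen with earlier results of these data known. Alternatives were quantile or array-median scaling, normexp with an offset of 50 on median spot and background signals (planned on raw spot and local background signals), the authors' matrix, no filter or a stricter filter on dim probes, saturated spots left out, the mean of all probes, and a 3-fold threshold. The calculation was tested on simulated data. Tools were Python 3.11.15, pandas 2.3.3, numpy 2.4.6, scipy 1.17.1, matplotlib 3.10.9, R 4.3.3 and limma 3.58.1.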

Additional observations from a re-analysis of the deposited data

How the results depend on the processing

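Under every alternative run, the enzyme median kept its direction, with a range of 0.80 to 0.88 for 1SA against WT, 0.57 to 0.62 for 2SA against WT and -0.41 to -0.31 between the mutants. The median of the other members lay near 0 and changed sign for 2SA against WT (-0.01 to 0.03) and 2SA against 1SA (-0.02 to 0.08). Counts past 2-fold stayed within 1.5 times the reported count with 1 exception. At a 3-fold threshold, 2 members were higher in 2SA against WT, where 8 passed 2-fold. In 1SA against WT, 7 members passed 3-fold. The share of all genes past 3-fold was not computed, so these counts have no background beside them. Of the members past the limit from repeated spots, 0 changed sign under any alternative in any of the 3 comparisons. No spot was saturated, so leaving saturated spots out could change no value. The dimmer Srebf2 probe, of opposite sign in 1SA (0.61 against -0.88), was not run alone. Normexp with an offset of 50 moved 13 of 42 single-gene values by more than 0.10, the SD that repeated spots give. Cyp51 became 1.39 in 1SA and 0.79 in 2SA, and Nsdhl 0.88 in 2SA, so that both were under 2-fold in 2SA and 6 members passed it. The mean of all probes changed Srebf2 to -0.14 in 1SA and 0.27 in 2SA. Quantile scaling moved 3 values, all in 2SA against 1SA (Fdps -0.66, Hmgcs1 -0.29 and Msmo1 -0.55). The stricter filter kept 34 of the 35 members. Scalings moved the median of all genes by less than 0.1. No paired analysis was possible because 1 array stood for each group, and a slide term could not be fitted because all arrays lay on 1 slide. A probe's brightness over background limits dim values, such as those of the second Fdft1 probe.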
